A study of Mus musculus with 9 samples.

Results

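The genes described are 9 members of the insulin-like growth factor (IGF) system of the mouse: the ligands Igf1 and Igf2, the IGF2 receptor Igf2r, and the binding proteins Igfbp2, Igfbp3, Igfbp4, Igfbp5, Igfbp6 and Igfbp7. They were taken by symbol from a table of 28965 genes, and all 9 symbols were present. Of these, 7 reached a mean value of 10 over the 9 libraries and were tested with 15002 genes in all, while Igfbp2 and Igfbp5 stayed below it. RNA came from 3T3-L1, an established line of mouse adipocyte precursors, labelled wild type. Confluent cultures whose medium had stood unchanged for 2 days were given, whatever the group, insulin (0.1 µg/mL), 3-isobutyl-1-methylxanthine (30 µg/mL) and dexamethasone (0.1 µg/mL) for 24 h. The MDI group had albumin vehicle in addition, the OA group 100 µM oleic acid on albumin, and the OA_T0 group that oleic acid plus 5 µM T0901317, a synthetic agonist of the liver X receptors (LXR). Each group had 3 libraries. Cells without the cocktail and cells with T0901317 alone are not among the samples, so the comparisons read changes on top of the cocktail, insulin included. The labels do not say whether libraries of a group came from separate cultures, so p-values measure only the spread between these libraries, which may be technical.

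IGF1 and IGF2 are secreted peptides related to insulin. Both signal through the IGF1 receptor, a tyrosine kinase that acts on IRS adaptors, and insulin at high concentrations can also activate it. The IGF2 receptor has no kinase: it binds IGF2 at the cell surface and carries it to lysosomes, and it also sorts lysosomal enzymes that bear mannose 6-phosphate. The binding proteins IGFBP2 to IGFBP6 hold the ligands with high affinity and release them when proteases cut them, whereas IGFBP7 binds IGFs weakly. In preadipocytes IGF1 signalling promotes differentiation, which is why insulin or IGF1 is part of adipogenic media.

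Values are the authors' normalised counts. Depth was estimated at 59.9 M fragments in MDI replicate 1 and at 18.0 M to 29.3 M in every other library. A floor of 3 fragments corresponded to 1.35 to 4.62 deposited units and covers counting error only. All 9 preadipocyte and fibroblast markers were tested, and their sum ran from 265045 to 284174 in MDI, from 285439 to 311614 in OA and from 242624 to 285284 in OA_T0. Of these markers only Pdgfra passed in OA against MDI, where it was higher. In OA_T0 against OA, Dlk1 was called higher and Pdgfra and Col3a1 lower, so this sum does not describe its whole list. The sum of the adipocyte markers was 6898 to 7555 in MDI, 12592 to 13701 in OA and 10605 to 11439 in OA_T0, and 5 of the 9 found (of 10 listed) were tested. Lpl, Fabp4 and Cd36 carried the rise in OA, from 5424 ± 197 to 9358 ± 183 for Lpl, whereas Pparg (adjusted p = 0.848 by limma) and Cebpa (0.413) did not pass there, so the sum does not describe the whole list. Adipoq, which defines mature adipocytes, was between 0 and 6.76 in every library. Among the 8 leukocyte markers, Adgre1 and Tyrobp were at 0 in all libraries and the sum was 82.6 to 113 in MDI, 105 to 112 in OA and 75.5 to 122 in OA_T0. Cd14 (46.6 to 86.8 over all libraries) and Cd68 (14.0 to 38.2) were tested and did not pass in any comparison. Every OA_T0 library lay above every OA library for Cd68 and below it for Cd14. The libraries OA replicate 1 and OA_T0 replicate 3 stood apart in the share taken by the most abundant gene model, CT010467.1, which was 0.649% and 3.06% there and 4.40% to 5.96% elsewhere. Member calls that change without this pair of libraries are given both ways. The adipocyte sum was separate in all 3 groups. The preadipocyte and fibroblast sum was higher in every OA library than in MDI and OA_T0, which overlapped. The part of these sums in the results below was not tested. In such bulk RNA, fewer cells of a type and less RNA per cell cannot be told apart. Libraries are named below by group and replicate number, as in MDI 1.

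Igfbp7, the most abundant member, and Igfbp3, the member that rose with T0901317, moved in opposite directions between OA and OA_T0. The 250 bases before their RefSeq start sites (build GRCm38.p6, which is not the mm9 build named for the deposited values) are shown because, at nearly equal GC content, they differ in matches to the GC box. Capitals mark matches on either strand to any of 7 motifs searched: the TATA box as TATAAA, the CCAAT box, the GC box as GGGCGG, the cAMP response element TGACGTCA, an LXR-type repeat (AGGTCA repeated after 4 bases), a PPAR-type repeat (AGGTCA repeated after 1 base), and a glucocorticoid response palindrome (AGAACA followed after 3 bases by its reverse complement).
Igfbp7, chr5:77408046-77408295, minus strand: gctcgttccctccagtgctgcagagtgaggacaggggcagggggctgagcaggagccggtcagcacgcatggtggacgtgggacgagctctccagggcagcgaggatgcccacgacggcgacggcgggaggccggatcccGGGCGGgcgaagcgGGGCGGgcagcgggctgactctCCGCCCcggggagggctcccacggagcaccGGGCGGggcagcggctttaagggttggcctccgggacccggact
Igfbp3, chr11:7213924-7214173, minus strand: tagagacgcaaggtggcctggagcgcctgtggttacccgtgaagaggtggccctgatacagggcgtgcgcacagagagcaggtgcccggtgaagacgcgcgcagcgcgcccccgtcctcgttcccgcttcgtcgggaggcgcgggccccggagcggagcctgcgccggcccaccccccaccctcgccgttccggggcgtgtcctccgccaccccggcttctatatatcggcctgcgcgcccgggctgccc
The Igfbp7 window held 4 GC boxes, at 110, 96, 74 and 44 bases before the start, and was 74.0% G or C. The Igfbp3 window was 73.2% G or C and held none of the 7 motifs in these letters. A GC box lay in 32.7% of 32851 such windows of all genes, so its presence is common. Among the other members, GC boxes lay in the Igf2r window and in some but not all windows of Igfbp2 and Igf2. Those of Igf1, Igfbp4, Igfbp5 and Igfbp6 held none. All 250 bases of the Igf1 window lay within an annotated Igf1 exon, 2846 bases downstream of the GENCODE gene start. An Igf2 window that held a GC box was likewise exonic throughout, so these windows may be transcribed sequence. Igf1 rose in OA and fell in OA_T0 as Igfbp7 did. A link between matches and direction was not tested. In the same windows of all genes the LXR-type repeat lay in 0.0152%, the PPAR-type repeat in 0.0335% and the glucocorticoid palindrome in 0.00913%. None of these 3 elements lay in any of the 13 windows listed for the 9 members. Matches describe letters only, and an absent match says nothing about a factor.

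Levels of different genes were compared as deposited value per kilobase of exon, averaged over the 9 libraries. Igfbp7 led with 4436 ± 488 per kb (SD over the 9 libraries), and its lowest library lay above every library of the other members. Igfbp3 came next with 1272 ± 224 per kb, followed by Igf2 with 1154 ± 117 per kb. Their libraries overlapped, and Igf2 was ahead of Igfbp3 in MDI and behind it in OA and OA_T0, so these neighbours cannot be ordered. Igf2r stood at 825 ± 60.5 per kb and Igfbp4 at 602 ± 65.4 per kb, and the libraries of neither overlapped with those of the gene above it. Igfbp6 and Igf1 were an order below, at 67.2 ± 13.5 and 44.8 ± 14.7 per kb. Their libraries overlapped, and Igf1 ranked above Igfbp6 in OA only. Igf2 therefore made up most of the ligand RNA by this measure, and Igf1 a share of 1.86% to 5.66% of the summed ligand level per library.

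Igfbp2 and Igfbp5 were at or near the limit of detection. Igfbp2, a binding protein linked to fat mass in mice, had 0 fragments in 5 libraries and at most 2 in any other. Igfbp5, a binding protein that adheres to extracellular matrix, had 0 in 3 libraries and at most 5 elsewhere, and exceeded the floor in 2. No difference in these genes was detectable at this depth, and no fold is given.

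**Figure D1:**
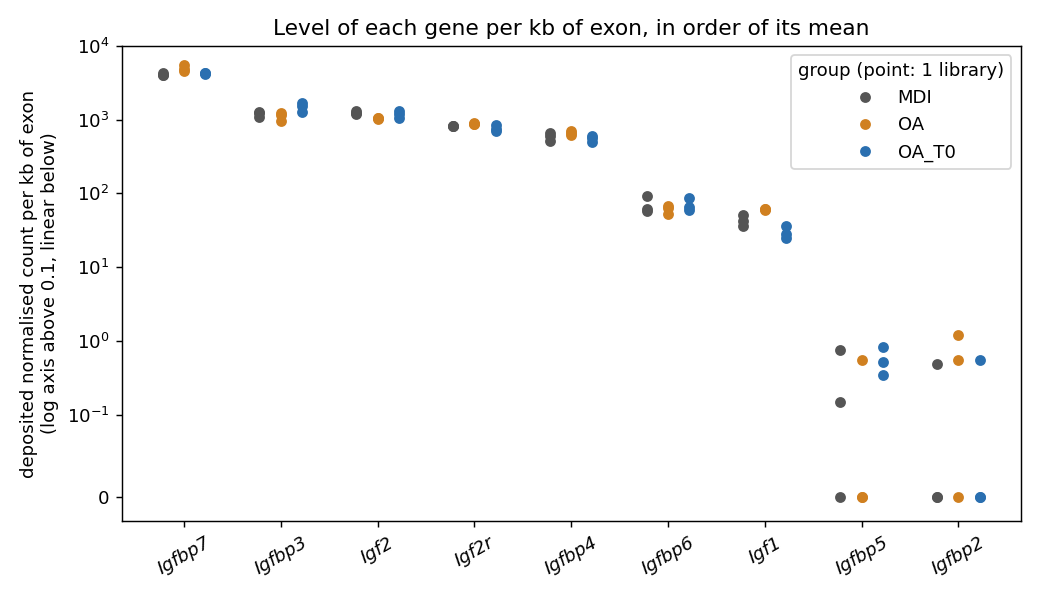
Deposited value per kb of exon for the 9 genes, 1 point per library, coloured by group, on an axis that is logarithmic above 0.1. Igfbp7 lies between 3977 and 5483 per kb in all libraries, whereas Igfbp2 and Igfbp5 stay at or below 1.21 per kb.

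Igf1 was the member that differed most between groups. Its values were 356, 422 and 501 in MDI, 617, 615 and 599 in OA, and 278, 353 and 248 in OA_T0. The 3 groups did not overlap: every OA library lay above every MDI library, and every OA_T0 library below. The margin between OA_T0 2 (353) and MDI 1 (356) was small, so the separation of OA_T0 from MDI is slight there. These values rested on an estimated 161 to 790.0 fragments per library.

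Igf1 rose 1.43-fold with oleic acid, from 426 ± 73.0 to 610.3 ± 9.84 (mean ± SD, n = 3), or by 0.53 on the log2 scale (SE 0.13, limma adjusted p = 0.0249). With T0901317 added it fell by 1.07 on the log2 scale (SE 0.13, adjusted p = 6.65e-05), reaching 293 ± 54.0, which is 2.08-fold below OA. Against MDI, OA_T0 fell by 31.3% (log2 fold change -0.54, SE 0.13, adjusted p = 0.0422). The fall from OA to OA_T0 passed under all 19 alternatives, with log2 fold changes of -1.21 to -0.95. The rise in OA did not pass without MDI 1, MDI 2, OA 1, OA 2 or OA 3, reaching adjusted p = 0.128, and the difference of OA_T0 from MDI did not pass without MDI 2, MDI 3, OA 1, OA_T0 1 or OA_T0 3, reaching 0.183. It also did not pass without OA 1 and OA_T0 3 together (0.121) or when only the OA_T0 and MDI libraries were fitted (0.0676).

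Igf2 was the other ligand and went the other way in OA. It stood at 7434, 7041 and 6800.1 in MDI, at 6117, 5941 and 5765 in OA, and at 6749.8, 6032 and 7576 in OA_T0. All OA libraries lay below all MDI libraries, while the OA_T0 libraries spread over both. Igf2 fell by 16.2% in OA, or -0.25 as log2 fold change (SE 0.07, adjusted p = 0.0474). OA_T0 averaged 6786 ± 773 against 5941 ± 176 in OA (log2 fold change 0.19, adjusted p = 0.0981) and against 7091.5 ± 319.9 in MDI (adjusted p = 0.645). The call in OA was lost without MDI 1, MDI 2, OA 1, OA 2, OA 3 or OA_T0 1, with adjusted p up to 0.167, and with equal totals per library (0.0876). The difference between OA_T0 and OA passed without OA_T0 2 (adjusted p = 0.0145). Igf2 shares 3596 of its 5723 exonic bases with a read-through model, Gm49394, on the same strand, and 98 with Igf2os on the opposite strand. The values of these 2 genes ran from 33.9 to 86.3 and from 6.61 to 17.2, far below those of Igf2. How fragments in shared exons were counted is not given in the sources used here. Low values of Gm49394 therefore do not show that Igf2 lost no fragments, and its level per kb and the ligand sums carry this limit.

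As a share of the summed ligand level per kb, Igf1 was 3.37% ± 0.699 in MDI, 5.61% ± 0.0824 in OA and 2.48% ± 0.720 in OA_T0. The ligand sum itself was 1282 ± 48.7, 1099.8 ± 31.6 and 1215 ± 130 per kb in the same order. These sums are a description with no test.

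**Figure D2:**
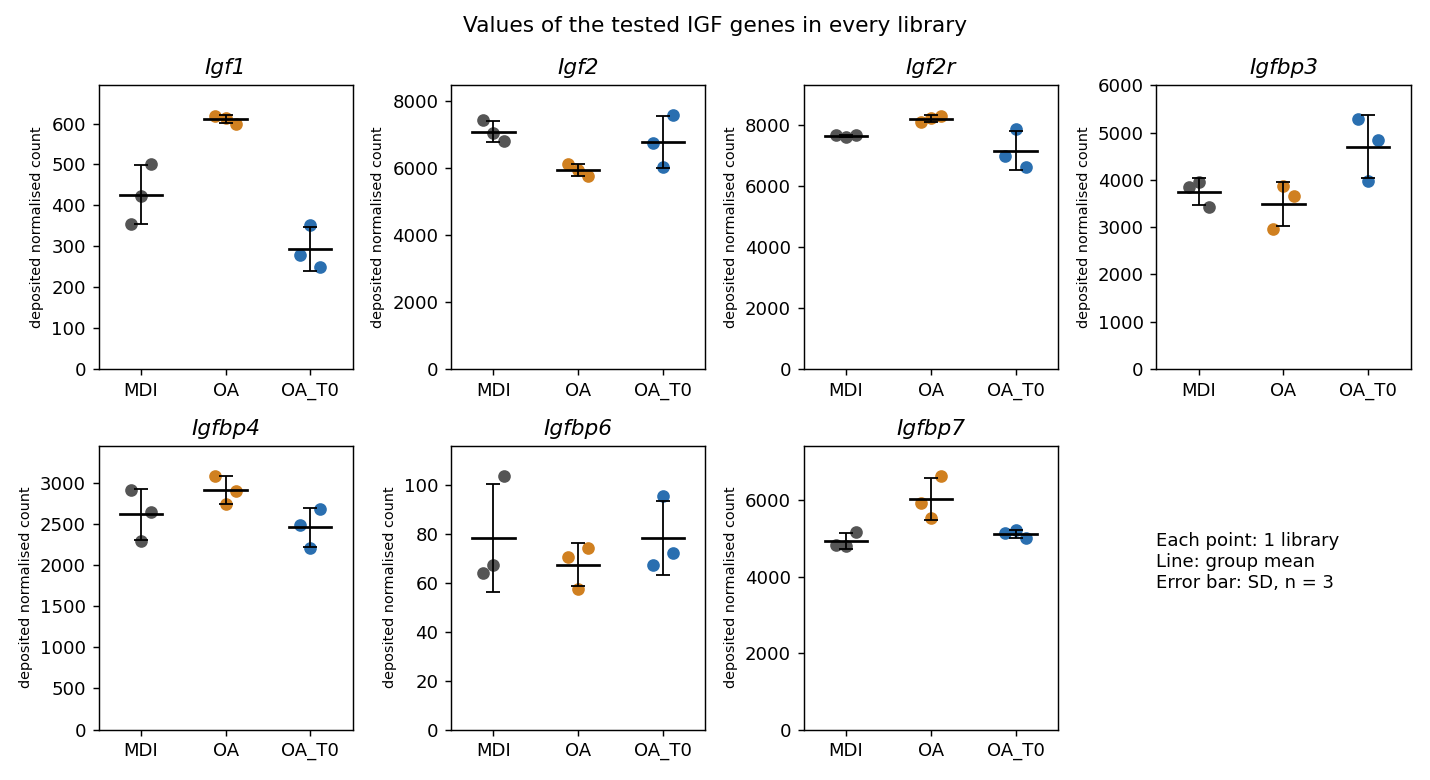
Deposited normalised counts of the 7 tested genes in each of the 9 libraries, as points, with the group mean and SD (n = 3). Igf1 is between 599 and 617 in OA and between 248 and 353 in OA_T0, and the Igfbp6 groups overlap throughout.

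Igf2r, which removes IGF2 from the cell surface, fell with T0901317 by a smaller step than Igf1. Its values were 7680.3, 7606 and 7667 in MDI, 8109, 8250.2 and 8311 in OA, and 7004, 7867 and 6618 in OA_T0. All OA libraries lay above those of both other groups. OA averaged 8223 ± 104 against 7651 ± 39.7 in MDI, a log2 fold change of 0.10 that did not pass (adjusted p = 0.370). From OA to OA_T0 Igf2r fell by 12.9%, or -0.20 as log2 fold change (SE 0.06, adjusted p = 0.0383). That call was lost without MDI 2, OA 1, OA 2, OA 3, OA_T0 1 or OA_T0 3, up to adjusted p = 0.157, and without OA 1 and OA_T0 3 together (0.271). Fitting only the OA and OA_T0 libraries gave 0.0592. The long RNA Airn, which silences the paternal Igf2r copy in many mouse tissues, overlaps Igf2r on the opposite strand but shares no annotated exon with it. Airn averaged 153 ± 23.0 in MDI, 166 ± 15.8 in OA and 112 ± 20.8 in OA_T0, and it fell from OA to OA_T0 as well (log2 fold change -0.58, adjusted p = 0.0287). The Airn call was lost without OA 2, OA 3 or OA_T0 1, up to 0.150. The libraries keep strand per the labels, but whether the counting used it is not given in the sources used here.

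Of the binding proteins that were tested, Igfbp7 rose with oleic acid and fell again with T0901317, while Igfbp3 rose with T0901317. Igfbp7 encodes a secreted protein of the vascular and stromal matrix. Its values were 4832, 4808 and 5177 in MDI, 5932, 5533 and 6629 in OA, and 5137, 5215 and 5004 in OA_T0, so that all OA libraries lay above all others. OA exceeded MDI by 22.1%, or 0.29 as log2 fold change (SE 0.07, adjusted p = 0.0164). OA_T0 was 15.1% below OA, or -0.23 as log2 fold change (SE 0.07, adjusted p = 0.0263), and averaged 5119 ± 106 against 4939 ± 207 in MDI (adjusted p = 0.706). The rise was lost without MDI 1, MDI 2 or OA 3, up to adjusted p = 0.0919. The fall was lost without OA 1, OA 3, OA_T0 1 or OA_T0 3 (up to 0.0898), and without OA 1 and OA_T0 3 together (0.143). Igfbp7 shares 85 exonic bases with Polr2b on the opposite strand, whose values of 4454 to 5231 were of similar size.

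Igfbp3, the main carrier of IGFs in blood, had values of 3858, 3956 and 3421 in MDI, 2963, 3861 and 3648 in OA, and 5279.9, 3983 and 4849 in OA_T0. The MDI and OA libraries overlapped, and all OA_T0 libraries lay above both, OA_T0 2 by the smallest margin. Igfbp3 rose 1.35-fold from OA to OA_T0, from 3491 ± 469 to 4704 ± 660.3 (log2 fold change 0.43, SE 0.10, adjusted p = 0.0123). Against MDI, at 3745 ± 285, OA_T0 had a log2 fold change of 0.32 that did not pass (adjusted p = 0.124) except without OA_T0 2 (0.0340). The rise over OA was lost without OA 1 (0.0728) or OA_T0 1 (0.0847), and without OA 1 and OA_T0 3 together, at a log2 fold change of 0.29 (0.131).

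Igfbp4, a binding protein that mostly restrains IGF action until the protease PAPP-A cuts it, did not pass in any comparison. It stood at 2906, 2297 and 2641 in MDI, at 3079, 2736 and 2904 in OA, and at 2491, 2209 and 2681 in OA_T0. Every OA_T0 library lay below every OA library, by 15.3% on average (log2 fold change -0.24, SE 0.09, adjusted p = 0.0716). That difference passed without OA_T0 3 (0.0351). Igfbp6, which prefers IGF2, had values of 63.9, 67.5 and 104 in MDI, 70.5, 57.7 and 74.3 in OA, and 67.3, 95.5 and 72.4 in OA_T0. All groups overlapped and no comparison passed (adjusted p = 0.688, 0.559 and 0.973 for OA against MDI, OA_T0 against OA and OA_T0 against MDI). Its standard error of 0.22 on the log2 scale was the highest of the 7 tested members, and its counts were an estimated 43 to 142 fragments per library.

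Summed per kb, the binding proteins came to 5945 ± 123 in MDI, 6824 ± 481 in OA and 6365 ± 194 in OA_T0. Igfbp7 supplied 68.7% ± 1.71, 73.0% ± 2.11 and 66.6% ± 2.86 of that sum, and Igfbp3 supplied 20.2% ± 1.92, 16.4% ± 2.41 and 23.6% ± 2.64. Igfbp4 made up 8.10% to 11.1% and Igfbp6 0.800% to 1.54% in any library. The summed binding protein level was 4.64 ± 0.229 times the summed ligand level in MDI, 6.21 ± 0.598 times in OA and 5.27 ± 0.495 times in OA_T0. The MDI and OA libraries did not overlap in this ratio, and those of OA_T0 lay between, overlapping with MDI. The size of the ratio and the place of OA above OA_T0 rest on Igfbp7, which binds IGFs weakly. Without it, a sum formed after the values had been seen, the ratio was 1.45 ± 0.00966 in MDI, 1.67 ± 0.140 in OA and 1.76 ± 0.140 in OA_T0, with OA and OA_T0 overlapping and both above MDI. These are RNA ratios with no test.

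**Figure D3:**
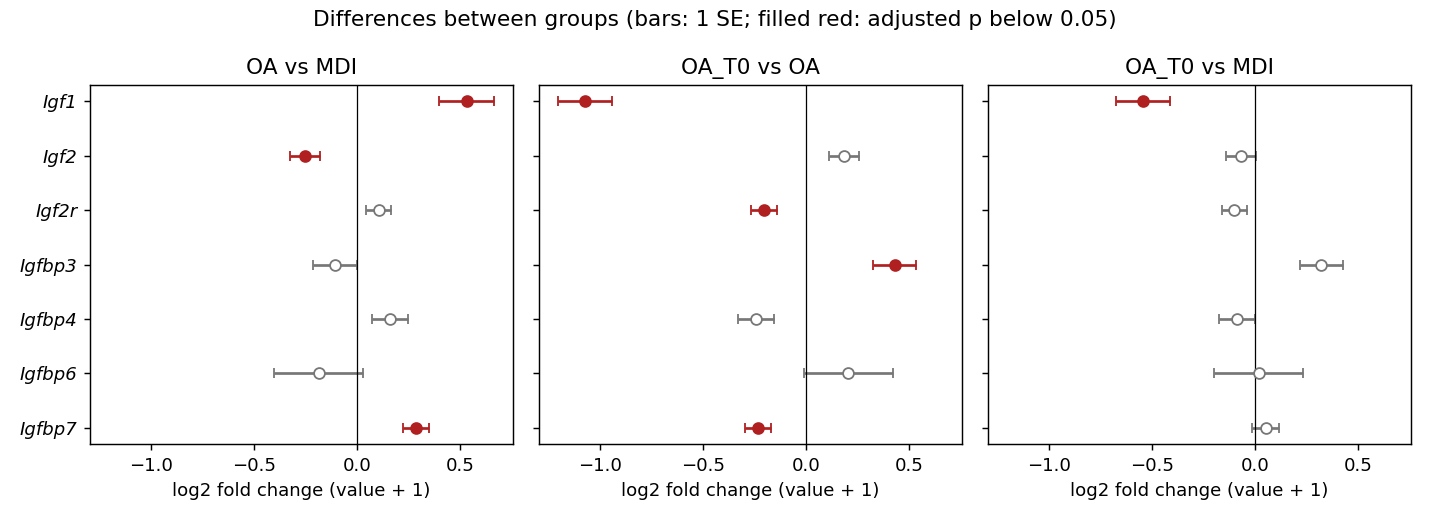
Log2 fold changes on the scale of value + 1 for the 7 tested genes in each comparison, with bars of 1 standard error and filled red points where the adjusted p is below 0.05. Igf1 is the member at 0.53 in OA vs MDI, -1.07 in OA_T0 vs OA and -0.54 in OA_T0 vs MDI, and the last 2 of these comparisons each share libraries with the first.

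By comparison, 2 members rose and 1 fell of 7 tested in OA against MDI, where 6.79% of all tested genes were called (3.43% higher, 3.36% lower). In OA_T0 against OA, 1 rose and 3 fell, with 15.1% of all tested genes called (8.27% higher, 6.84% lower). That balance turned with the scaling, from 1240 higher and 1026 lower as reported to 1045 higher and 1181 lower with equal totals per library. In OA_T0 against MDI 0 rose and 1 fell, with 2.61% called (1.25% higher, 1.36% lower). An unadjusted limma p below 0.05 was reached by 3, 6 and 2 of the 7 members in these comparisons, and by 21.2%, 29.9% and 18.5% of all tested genes. The member groups did not overlap in 4, 5 and 2 of 7 genes, where 26.1%, 32.1% and 23.5% of all tested genes did not overlap. Without a filter on low values, the fall of Igf1 in OA_T0 against OA was the 1 member call left, and the other 7 had adjusted p of 0.0668 to 0.173. The median log2 fold change of the members was 0.10, -0.20 and -0.07 in the same order, and that of all tested genes 0.01, -0.0023 and 0.02. OA libraries enter the first pair of comparisons with opposite signs, so opposite directions there are not independent of each other.

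**Figure D4:**
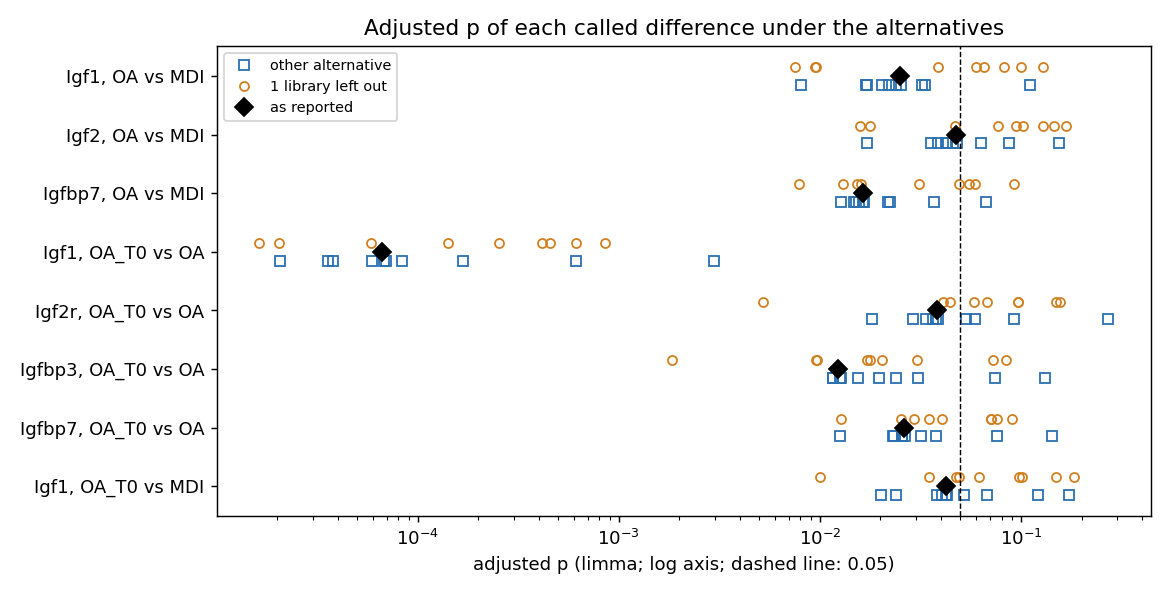
Adjusted p of each of the 8 called differences (log axis), as reported (diamonds), with 1 library left out (circles) and under the other alternatives (squares), with a dashed line at 0.05. Every symbol of Igf1 in OA_T0 vs OA is at or below 0.00296, whereas each of the other 7 differences has symbols on both sides of the line.

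The rest of the pathway was read from 65 genes in 6 lists, of which 62 were in the table and 55 were tested. In OA against MDI 5 rose, 8 fell and 42 did not pass. In OA_T0 against OA 12 rose, 8 fell and 35 did not pass, and in OA_T0 against MDI 1 rose and 0 fell. The shares of all tested genes called were 6.79%, 15.1% and 2.61% in the same order, so that 1 of 55 in the last comparison is near its background. The lists were chosen with earlier results of these data known, so counts above these shares are no independent support. An unadjusted limma p below 0.05 was found for 11 of the 55 in OA_T0 against MDI, against 18.5% of all tested genes. Leaving out single libraries, Ccn1, Ccn2, Htra3, Pappa and Slc38a4 kept their calls in OA against MDI, and these and Grb14, Mmp2 and Peg3 kept theirs in OA_T0 against OA. The other calls were lost without at least 1 library, as given for those named below.

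Among receptors and adaptors, 0 of 9 rose and 2 fell with oleic acid, and 3 rose and 0 fell with T0901317 added. Of all tested genes, 3.43% rose and 3.36% fell with oleic acid, and 8.27% rose and 6.84% fell with T0901317 added. These shares also stand beside the counts of the lists below. With 5 to 12 tested genes per list, the counts are descriptions, and a count of 1 may be near its background. Igf1r, the receptor for both ligands, had values of 3697, 3883 and 3353 in MDI, 3070.3, 3081 and 2784 in OA, and 3631, 3536 and 3502 in OA_T0, with all OA libraries below the rest. Igf1r fell by 0.29 on the log2 scale in OA (adjusted p = 0.0133) and rose by 0.26 from OA to OA_T0 (adjusted p = 0.0139). The fall was lost without MDI 1 or MDI 2, up to 0.0937, and the rise without OA_T0 1 (0.0733). Irs1, an adaptor of the insulin and IGF1 receptors, fell from 859 ± 82.9 to 655 ± 77.9 in OA (adjusted p = 0.0463) and rose to 872 ± 125 in OA_T0 (0.0227). Its fall was lost without MDI 2, MDI 3, OA 1, OA 3 or OA_T0 1 (up to 0.203), and its rise without OA 1, OA_T0 1 or OA_T0 2 (up to 0.117). Grb14, an adaptor that inhibits the insulin receptor, rose from 643 ± 8.12 in OA to 818 ± 55.4 in OA_T0 (adjusted p = 0.00489).

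Proteases and protease inhibitors that act on binding proteins were the next list. With oleic acid 1 of 12 rose and 1 fell, and with T0901317 added 2 rose and 3 fell. Pappa, which encodes the Igfbp4 protease PAPP-A, had values of 2160.3, 2049.7 and 1849 in MDI, 1505, 1611 and 1235 in OA, and 2213, 2056 and 2439 in OA_T0. All OA libraries lay below those of both other groups. Pappa fell by 0.48 on the log2 scale in OA (adjusted p = 0.00580) and rose by 0.63 from OA to OA_T0 (adjusted p = 3.63e-04). Htra3, a secreted serine protease, went the other way, with 123, 132 and 151 in MDI, 453, 384 and 475 in OA, and 114, 136 and 123 in OA_T0. Its log2 fold change was 1.69 in OA against MDI (adjusted p = 1.12e-06) and -1.80 in OA_T0 against OA (adjusted p = 3.07e-07). Mmp2, a gelatinase, fell from 10352 ± 383 to 7478 ± 698 between OA and OA_T0 (adjusted p = 6.32e-04). Stc1, a stanniocalcin of the family that inhibits PAPP-A, fell from 740.1 ± 94.1 to 562 ± 40.0 (0.0138), a call lost without OA 2 (0.0717). Stc2, of the same family, went the other way at low values, from 11.2 ± 5.13 to 26.1 ± 2.86 (0.0309). That call was lost without OA 2, OA 3, OA_T0 1, OA_T0 2 or OA_T0 3 (up to 0.121).

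Among other proteins with an IGF-binding domain, 0 of 5 rose and 2 fell with oleic acid, and 2 rose and 0 fell with T0901317 added. These were Ccn1 and Ccn2, matrix proteins of the CCN family. Ccn1 averaged 4227 ± 581 in MDI, 2831 ± 192 in OA and 5371 ± 185 in OA_T0, with adjusted p = 7.49e-04 for the fall and 3.31e-06 for the rise. Ccn2 averaged 189 ± 47.5, 59.8 ± 8.09 and 135 ± 11.6 in the same order, falling by 1.62 on the log2 scale (adjusted p = 7.45e-05) and rising by 1.16 (6.76e-04). Ccn1 was also the pathway gene that rose in OA_T0 against MDI (adjusted p = 0.0363), a call lost without MDI 1, OA_T0 1 or OA_T0 2 (up to 0.186). Igfbp1 and Igfals, the acid-labile subunit that joins circulating IGF complexes, averaged at most 0.376 and 5.25 in any group and were not tested.

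In the growth hormone axis, which drives Igf1 transcription in liver and fat, 1 of 9 rose and 3 fell with oleic acid, and 1 rose and 1 fell with T0901317 added. The receptor Ghr averaged 4093 ± 76.1 in MDI, 4076 ± 232 in OA and 3789 ± 64.5 in OA_T0 and did not pass. Stat5a, a transcription factor of this axis, rose from 472 ± 38.8 to 651 ± 56.1 in OA (adjusted p = 0.0104) and fell to 502 ± 51.3 in OA_T0 (0.0184). Its rise was lost without MDI 2 (0.0746) and its fall without OA 3, OA_T0 1 or OA_T0 3 (up to 0.0715). Socs2, a feedback inhibitor of growth hormone signalling, fell from 604 ± 82.9 to 379.6 ± 68.0 in OA (adjusted p = 0.00797) and rose to 513 ± 65.4 in OA_T0 (0.0407). The fall was lost without MDI 1 (0.0526) and the rise without OA 1, OA 3, OA_T0 1 or OA_T0 3 (up to 0.146). Jak2, the kinase bound to the receptor, fell from 2195 ± 98.2 to 1746 ± 118 in OA (adjusted p = 0.00618), a call lost without MDI 2 (0.0534). Prlr also fell in OA, from 19.9 ± 5.37 to 6.85 ± 0.913 (adjusted p = 0.0481), near the floor and lost without 7 of the 9 libraries, namely all but OA_T0 2 and OA_T0 3 (up to 0.156).

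For mannose 6-phosphate sorting, the other task of Igf2r, 1 of 9 rose and 0 fell with oleic acid, and 2 rose and 1 fell with T0901317 added. Gnptab, which makes the mannose 6-phosphate tag, fell from 2613 ± 47.4 in OA to 2262 ± 55.0 in OA_T0 (adjusted p = 0.0145), and this was lost without OA 1, OA_T0 1 or OA_T0 3 (up to 0.0758). Sort1, a sorting receptor, rose from 174 ± 8.93 to 286 ± 82.7 (0.0268), and was lost without OA 1, OA 2, OA_T0 1 or OA_T0 2 (up to 0.125). Plaur, the urokinase receptor, rose from 176 ± 16.4 to 234 ± 13.4 (0.0412), and was lost without any library of OA or OA_T0 (up to 0.149). Gga2, an adaptor for sorting at the Golgi, rose from 957 ± 53.2 in MDI to 1146 ± 64.5 in OA (0.0485), and was lost without 7 of the 9 libraries, all but OA_T0 2 and OA_T0 3 (up to 0.183). In the imprinted gene network and the Igf2 RNA binders, 2 of 11 rose and 0 fell with oleic acid, and 2 rose and 3 fell with T0901317 added. Slc38a4, an imprinted amino acid transporter, rose from 2519 ± 263 to 4002 ± 49.9 in OA (adjusted p = 2.28e-04) and fell to 2503 ± 323 in OA_T0 (8.40e-05). Peg3, an imprinted zinc finger gene, fell from 5038 ± 254 in OA to 3757 ± 656 in OA_T0 (adjusted p = 0.00513). Ndn, which encodes necdin, rose from 1196 ± 163 in MDI to 1502 ± 158 in OA (adjusted p = 0.0416), and was lost without MDI 1, MDI 2, OA 1, OA 3 or OA_T0 1 (up to 0.187).

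The genes whose log2 values followed a member most closely over the 9 libraries were searched among 10905 named genes with a mean of at least 50. For Igf1 they were Arrb1, a beta-arrestin (Pearson r = 0.979), Prrx1, a homeobox factor of mesenchymal cells (0.979), and Lipa, lysosomal acid lipase (0.979). For Igfbp7 they were Acot7, an acyl-CoA thioesterase (0.985), Etfb, an electron carrier of fatty acid oxidation (0.978), and Psap, prosaposin (0.977). For Igfbp3 they were Pip5k1a, Ethe1 and Gnpnat1 (0.957, 0.932 and 0.929). These points share libraries and group differences, so the correlations are descriptions with no test.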

How the data were processed

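Poly(A) RNA of 9 libraries was sequenced. The deposited values are a signal per gene: counts that the authors normalised and that are not whole numbers. A scaling by 1 factor per library is inferred from the low values described below, and it accounts for them only in part. The submitters' processing notes name CASAVA 1.8.2, TopHat, HTSeq, DESeq2 and build mm9, without roles. Low values piled up on multiples of 1 step per library, taken as 1 fragment, but only 63.1% to 70.7% of values between 5 and 50 steps were whole within 0.05 of a step, so no count test was run. Genes with a mean of at least 10 were tested on log2(value + 1) by limma 3.58.1 (R 4.3.3; variance trend on intensity; all 3 groups fitted together; two-sided), with Benjamini-Hochberg adjustment per comparison over all tested genes. Fold changes on this scale understate changes of low genes. Exon and window positions came from GENCODE M21 and RefSeq (GRCm38). Members and lists were chosen with earlier results of these data known. Named are all members, up to 4 passing genes per list with the smallest adjusted p, and the 3 genes most correlated with each of the 3 members with the smallest F-test p. Ghr, Igfbp1, Igfals, Stc2 and the cell type markers are named outside this rule, chosen after their values were seen. The test was checked on simulated data, where it recovered 60.3% to 66.7% of 1.5-fold changes over the 3 comparisons. For 2-fold changes this was 74.2% to 83.6%, and for 4-fold changes 89.4% to 95%. Of its calls there, 0.645% to 6.36% were false. Fewer genes were changed in the simulation than were called in the data, so these shares may not carry over. A gene that did not pass may still differ, and larger steps were missed less often than smaller ones. Alternatives were 2 pseudocounts, 2 filters, 2 scalings, a fit of the compared groups only, a replicate block, robust variances, and omission of libraries.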

Additional observations from a re-analysis of the deposited data

How the results depend on the processing

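Of the members' differences, the fall of Igf1 in OA_T0 against OA passed under all 19 alternatives, and each of the other 7 called differences was lost under at least 1. With single libraries left out, the number of members called was 0 to 3 for OA vs MDI (3 as reported), 1 to 5 for OA_T0 vs OA (4), and 0 to 2 for OA_T0 vs MDI (1). Pathway genes called ran from 6 to 13 (13), from 9 to 21 (20) and from 0 to 2 (1) in the same order. Without a filter on low values, 0, 1 and 0 members and 6, 10 and 0 pathway genes were called in that order, with more genes tested. Without OA replicate 1 and OA_T0 replicate 3, 1 member and 12 pathway genes were called for OA_T0 vs OA. For OA_T0 vs MDI these were 0 and 3. In OA_T0 vs MDI 0 members were called when only the 2 groups compared were fitted, and 2 pathway genes after quantile normalization. Shares of all tested genes called with libraries left out or without a filter are not given here. A general loss of calls therefore cannot be told apart from one particular to these genes. The cause was not tested.

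Directions reversed only for differences that had not passed. With single libraries left out, the log2 fold change ran from -0.19 to 0.01 (0.00601) for Igfbp3 and from -0.31 to 0.031 for Igfbp6 in OA vs MDI, and from -0.15 to 0.01 (0.0130) for Igf2 and -0.13 to 0.24 for Igfbp6 in OA_T0 vs MDI. It was 0.01 (0.00601) for Igfbp3 without OA replicate 1 and OA_T0 replicate 3, and -0.015 for Igfbp6 in OA_T0 vs MDI with equal totals. By the longest transcript in place of all exons, 2 members changed rank, the barely detected Igfbp2 and Igfbp5.

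Equal replicate numbers showed no clear pairing: deviations from the group mean correlated at -0.256 to 0.259 over the 9 same-numbered pairs, above 0.1 in 1 of them. The 18 differently numbered pairs ran from -0.230 to 0.250, above 0.1 in 6. Such weak correlations cannot exclude that the numbers mark parallel cultures, which the labels do not say. With the replicate block, 2, 4 and 0 members were called, and 11, 18 and 1 pathway genes. Under it the adjusted p was 0.0630 for Igf2 in OA vs MDI, 0.0530 for Igf2r and 0.0258 for Igfbp4 in OA_T0 vs OA, and 0.0520 for Igf1 in OA_T0 vs MDI. In 2 of 9 libraries the closest library of another group had the same number.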
